A study of Mus musculus with 4 samples.

Results

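The libraries CxH and MWT, 2 of the 4 RNA sequencing libraries of a study of the mouse brain lacking Ids, were set against each other here. They were chosen because both were low in Ids reads and because the log2 ratio between them followed the GC content of the transcripts more closely than in any other pair. By its label, CxH holds pooled RNA of the cerebral cortex of Ids-/- mice and MWT that of the midbrain, diencephalon and hippocampus of wild type mice, with 7 animals a pool, all C57BL/6 and aged 9 months. The Ids reads of MWT go against its label, as given below. The other libraries, MH and CxWT, carry the labels of the same 2 tissues with the genotypes exchanged. Per the methods of the study, its midbrain, diencephalon and hippocampus dissection also takes in the striatum, the thalamus and the hypothalamus. Each condition is 1 library, so nothing below carries a replicate check, and the labels of CxH and MWT differ in both area and genotype, whose effects cannot be told apart.

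Ids encodes iduronate 2-sulfatase, a lysosomal enzyme that removes sulfate from heparan sulfate and dermatan sulfate, and its loss is the cause of mucopolysaccharidosis type II (Hunter syndrome). In the brain, excitatory neurons of the cortex load glutamate into synaptic vesicles mainly with the transporter made by Slc17a7, while those of the thalamus and much of the midbrain and hypothalamus rely on that made by Slc17a6. Dopamine and serotonin neurons have their cell bodies in the midbrain and hindbrain, and oxytocin, vasopressin and orexin are made in the hypothalamus.

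The starts of the coding sequences of 4 genes are given here to show how the GC content differs between transcripts, with G and C in capitals, and the genes were chosen as examples with their ratios known. Slc17a7 (chr7:52419291-52431508, plus strand) and Slc17a6 (chr7:58877200-58926495, plus strand) encode the vesicular glutamate transporters. Grin1 (chr2:25146701-25174707, minus strand) encodes the obligatory subunit of the NMDA receptor, and Gabrb2 (chr11:42233259-42446092, plus strand) a beta subunit of the GABA-A receptor. The positions and the 120 bases of each, counted from the start codon in the 5′ to 3′ direction, come from GENCODE vM1 on NCBIM37, the mm9 build.
Slc17a7: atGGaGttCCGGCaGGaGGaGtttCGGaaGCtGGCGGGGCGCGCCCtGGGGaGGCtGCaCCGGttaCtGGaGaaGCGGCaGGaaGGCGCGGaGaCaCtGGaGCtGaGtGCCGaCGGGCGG
Slc17a6: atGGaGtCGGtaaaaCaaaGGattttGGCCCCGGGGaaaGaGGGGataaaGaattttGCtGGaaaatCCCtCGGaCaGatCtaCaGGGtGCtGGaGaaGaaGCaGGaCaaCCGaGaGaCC
Grin1: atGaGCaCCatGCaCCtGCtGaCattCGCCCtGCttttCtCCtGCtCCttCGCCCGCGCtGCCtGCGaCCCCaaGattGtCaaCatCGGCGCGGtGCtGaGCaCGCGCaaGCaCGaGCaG
Gabrb2: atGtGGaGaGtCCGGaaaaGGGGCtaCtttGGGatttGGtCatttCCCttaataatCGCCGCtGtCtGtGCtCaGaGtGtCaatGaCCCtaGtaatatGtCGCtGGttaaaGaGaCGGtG
In these 120 bases, 83 were G or C in Slc17a7 and 60 in Slc17a6, and 75 were G or C in Grin1 and 57 in Gabrb2. Over the whole transcript, the GC content was 58.8% for Slc17a7, 43.3% for Slc17a6, 59.4% for Grin1 and 39.9% for Gabrb2. At the third positions of the codons it was 74.2%, 55.2%, 71.3% and 53.8% in the same order. Their ratios of CxH over MWT follow with their gene lists.

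The counts are whole reads aligned to a single gene, 23475080 of them in CxH and 16380080 in MWT, with a median of 738 and 567 reads per gene. Levels are in RPM, the reads of a gene per 1000000 aligned reads of its library, and a floor of 3 reads stands at 0.0779 RPM in CxH and 0.104 RPM in MWT. Ratios are log2 of CxH over MWT, each ± is a standard error from counting, and intervals, floors and standard errors cover counting error only. A gene was tested with 50 or more reads in either library, and was called when its log2 ratio reached 0.7 in either direction.

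Ids (chrX:67596244-67618260, minus strand) had 5211 reads in CxH, 4496 in MWT, 13752 in MH and 11890 in CxWT. In exact Clopper-Pearson intervals at the 95% level, CxH held 135 RPM (132 to 139) and MWT 155 RPM (151 to 160), against 368 RPM (362 to 374) in MH and 354 RPM (347 to 360) in CxWT. The library labelled MWT was therefore low and the library labelled MH high in the gene that the labels give as intact in the former and disrupted in the latter. The ratio of CxH over MWT was -0.20 ± 0.03, within the fold threshold, and it was 0.29 after the correction for GC content and length that is described below. The areas can be read in the same way. The 18 genes typical of cortical excitatory neurons summed to 6925 RPM in CxH and 6101 RPM in MH, against 1545 RPM in CxWT and 1323 RPM in MWT, and the 18 thalamic genes to 152, 179, 938 and 815 RPM in the same order. In these lists CxH and MWT stood on the side that their area labels name, while MH and CxWT stood on the opposite side.

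**Figure D1:**
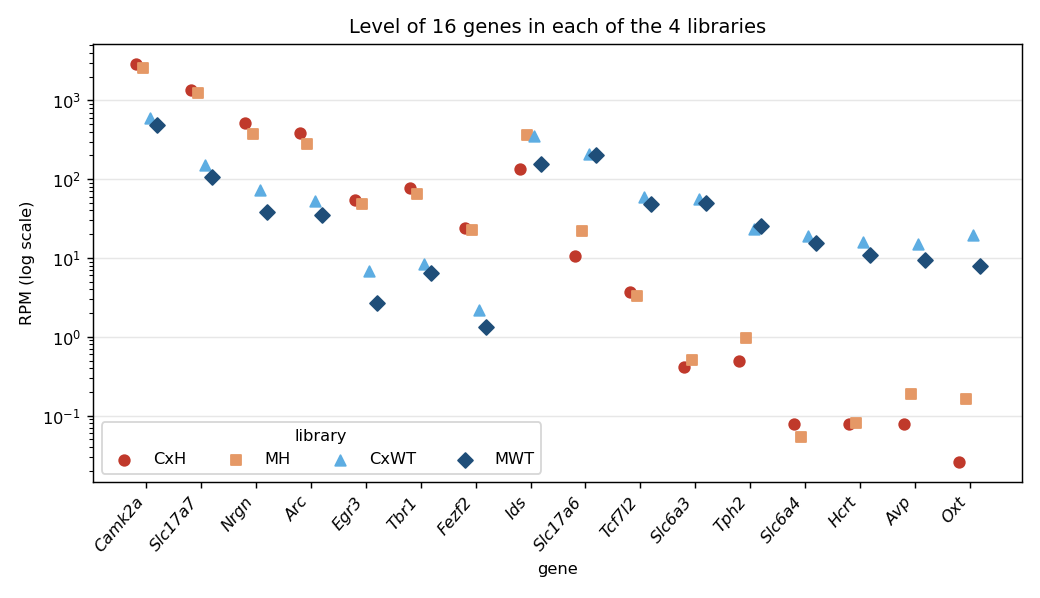
RPM (log scale) of 16 genes in each of the 4 libraries, 1 point per library. CxH and MH lie together for the genes of cortical neurons on the left and for those of the diencephalon and brainstem on the right. Among these 16 chosen genes, CxH and MWT lie together only for Ids, at 135 and 155 RPM. The low Ids level of both libraries is part of how the pair was chosen.

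Of the 12700 genes in the table, 12409 were tested, 1938 (15.6%) were called higher in CxH than in MWT and 1866 (15%) were called lower. The median log2 ratio of all tested genes was -0.04. The calls were mostly modest in size, with a median of 1.06 for those higher and -0.94 for those lower. A log2 ratio of 2 or more was reached by 188 genes on the higher side and by 135 on the lower side, and of 4 or more by 11 and 29 genes. Dividing by the reads on genes in place of the aligned reads moved the median of all genes to -0.14 and the calls to 1575 higher and 2445 lower, so each direction below is relative to a middle that depends on the scaling by about 0.1.

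Transcription factors of the cortex and immediate early genes were among the genes with the highest ratios. Fezf2, a transcription factor of the corticofugal neurons of the deep layers, had 927 reads in CxH, 39 in MWT, 845 in MH and 73 in CxWT, and a ratio of 4.16 ± 0.24. Emx1, a transcription factor of the dorsal telencephalon, had 196 reads against 11 in MWT (3.74 ± 0.45). Nrgn, which encodes the calmodulin-binding protein neurogranin, had 20049 reads in CxH and 1109 in MWT (3.76 ± 0.04). In all 3 genes, CxH and MH were high and CxWT and MWT were low, where CxH above MWT follows from how the genes were chosen. Egr3 and Egr4, immediate early transcription factors, stood at 4.36 ± 0.17 (2097 reads against 77) and 4.07 ± 0.20 (1158 against 52). Ovol2, which encodes a zinc finger factor, had 150 reads in CxH and 1 in MWT, a ratio of 113-fold with an exact 95% interval of 19.9 to 4483. Next came Ntn5 (5.02 ± 0.46), a netrin, the transcript 9130024F11Rik (4.82 ± 0.52), Dkkl1 (4.62 ± 0.35) and Rtn4rl2 (4.50 ± 0.31), which encodes a Nogo receptor family member. Hkdc1 (4.02 ± 0.38), a hexokinase gene, Epop (3.95 ± 0.16), Nptxr (3.85 ± 0.28), the neuronal pentraxin receptor, and Psrc1 (3.78 ± 0.37) had slightly smaller ratios. Those richest in GC, from 59.6% to 68.5%, moved by over 1.5 times with the correction for GC content and length described below and stayed above the threshold. Their corrected ratios were 2.78 for Egr4, 3.60 for Egr3, 3.28 for Rtn4rl2, 2.75 for Epop, 2.63 for Emx1, 4.17 for Ntn5 and 3.03 for Nptxr. All of these genes were also above the threshold in MH over CxWT, between 1.19 for Nptxr and 4.37 for Ovol2.

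Genes of hypothalamic neuropeptides and of monoamine neurons were among those with the lowest ratios. Oxt, the oxytocin precursor, had 1 read in CxH and 231 in MWT, 6 in MH and 658 in CxWT, and was 307-fold lower in CxH (exact 95% interval 54.6 to 12188). Hcrt, the orexin precursor, had 3 reads against 312 in MWT, and was 138-fold lower (46.9 to 674). Avp, the vasopressin precursor, had 3 against 276 reads and was 122-fold lower (41.4 to 597). For these 3 peptides, CxH and MH held at most 7 reads and CxWT and MWT at least 231. Oxt and Avp, both rich in GC, stood at -8.26 and -6.94 before the correction and at -8.86 and -7.91 after it. Slc6a4, the serotonin transporter, had 3 reads against 446 (198-fold lower, 67.2 to 963), and Slc6a3, the dopamine transporter, had 16 against 1440 (-6.90 ± 0.36). Tph2, the enzyme that limits serotonin synthesis in the brain, had 19 reads in CxH and 733 in MWT (-5.68 ± 0.34). Gata3 and En1, transcription factors of the hindbrain and midbrain, each had 1 read in CxH, against 128 and 126 in MWT, and were 170-fold (30.0 to 6777) and 168-fold (29.5 to 6672) lower. Pgr15l, a receptor gene, had 0 reads in CxH and 161 in MWT, which at the floor of 3 reads is at least 71.4-fold lower. Calcr, the calcitonin receptor, had 3 reads against 226 and was 100-fold lower (33.9 to 490). Chrna6 (-6.01 ± 0.55), a nicotinic receptor subunit of dopamine neurons, Irx2 (-5.80 ± 0.65), Glra1 (-5.21 ± 0.60), a glycine receptor subunit, Dgkk (-4.75 ± 0.24) and Arhgap36 (-4.70 ± 0.26) followed. In bulk tissue, fewer cells of a type and less RNA per cell cannot be told apart.

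The lists for the cerebral cortex lay almost whole on the higher side, where 15.6% of all genes tested were called higher and 15% lower. Of 23 cortical neuron transcription factors, all tested, 20 were called higher and 0 lower, with a median ratio of 1.88. Tbr1, a factor of early-born deep-layer neurons, had 78.3 RPM in CxH and 6.36 in MWT, with 64.2 in MH and 8.36 in CxWT (3.62 ± 0.11). Mef2c stood at 1.81, Lmo4 at 1.79, Cux1 at 0.22 and Tle4, the lowest of the list, at 0.13. After the correction Cux1 was the lowest, at -0.37. Of the 18 cortical excitatory neuron genes, 15 were called higher and 0 lower, with a median of 2.27. Camk2a, the alpha subunit of calcium/calmodulin-dependent kinase II, had 111566 reads in CxH, 95625 in MH, 20308 in CxWT and 14256 in MWT (2.56 ± 0.01). Slc17a7 had 52335 reads in CxH, 46328 in MH, 5120 in CxWT and 3119 in MWT, a ratio of 3.66 ± 0.03 that was 3.01 after the correction. Rasgrf2 was the lowest of the list at -0.25.

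Striatal and hippocampal genes were also higher in CxH, although the methods place both structures in M. The shares of all genes tested were 15.6% called higher and 15% lower, and 8.16% and 8.21% after the correction. Of 19 striatal medium spiny neuron genes, 16 were called higher and 2 lower, with a median of 1.26. Ppp1r1b, which encodes the dopamine-regulated phosphoprotein DARPP-32, had 320 RPM in CxH, 239 in MH, 87.2 in CxWT and 77.8 in MWT (2.04 ± 0.03). Adora2a, the adenosine receptor of the striatopallidal neurons, had the highest ratio of the list, 2.11 ± 0.07, and Isl1, a factor of striatal and other neurons, the lowest, -1.85. The correction moved Ppp1r1b to 1.31 and Adora2a to 1.49, and Sh3rf2 was then the highest of the list at 1.99. For Ppp1r1b and Adora2a, CxH and MH were above CxWT and MWT. Of 16 hippocampal genes, 11 were called higher and 0 lower (median 0.86). Neurod6 was the highest at 3.59 ± 0.18, and Prox1, a factor of dentate granule cells, the lowest at -0.61. The correction moved Neurod6 to 4.23 and Prox1 to -0.73, and the lowest of the list was then C1ql2 at -1.10. After the correction 6 of the 16 were called higher and 3 lower, and the median was 0.34. For the cortical transcription factors the median was 1.90 after the correction and for the cortical excitatory neuron genes 1.80. Cortical interneuron genes were split, with 9 of 19 called higher and 6 lower, which became 8 and 3 after the correction. In this list, Cck stood at 2.31 and Cort, which encodes cortistatin, at 2.48, with 74 reads in CxH and 10 in MWT. Gad1 and Gad2, the GABA-synthesizing enzymes, were at -0.75 and -1.36 and Calb2, calretinin, at -2.32. Cck, Gad1, Gad2 and Calb2 are among the 6 of these 19 genes that are also in another list. The corrected ratio of Gad1, -0.61, was within the threshold.

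The lists of the diencephalon, midbrain and hindbrain lay on the lower side, where 15% of all genes tested were called lower and 15.6% higher. None of 18 thalamic genes was called higher and 15 were called lower, with a median of -2.20. Slc17a6 had 405 reads in CxH, 816 in MH, 6988 in CxWT and 5939 in MWT (-4.29 ± 0.07) and was high in the 2 libraries in which Slc17a7 was low. Tcf7l2, a transcription factor of thalamic neurons, stood at -3.69 ± 0.13, Prkcd at -2.78 and Six3, the highest of the list, at -0.35. Six3 was at -0.85 after the correction, and 16 of the 18 thalamic genes were then called lower. Of the 13 hypothalamic neuropeptide genes with counts, 9 were tested, 8 were called lower and 1, Crh, was called higher at 0.74, with 78 reads in CxH and 35 in MWT. Of 7 hypothalamic transcription factors tested, 5 were called lower (median -1.56), from Foxb1 at -4.54 to Dlx1 at 0.31. Of 12 midbrain and hindbrain factors 9 were called lower (median -2.53), and 1 was called higher, Nr4a2 at 1.79, which cortical neurons express too. For this list, Pax7 had 0 reads in CxH and 85 in MWT, and the median was -2.53 with Pax7 at the floor as well.

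Most genes of the dopamine, serotonin and transmitter identity lists were also called lower, against 15% of all genes tested called lower and 15.6% higher. The lists partly repeat the same genes, since 7 of the 12 dopamine, 6 of the 10 serotonin and 7 of the 14 transmitter identity genes are also in another list, among them Slc18a2, Tph2, Gata3, En1 and Slc17a6. Of 12 dopamine neuron genes 10 were called lower and 2, Nr4a2 and Drd2, higher, with a median of -3.10. Drd2 moved from 0.91 to 0.59 with the correction and was no longer called. Beside Slc6a3, those with the most reads were Aldh1a1 (-2.28), Dlk1 (-3.16) and Ret (-3.32), a receptor for glial cell line-derived growth factors. Of 10 serotonin neuron genes 8 were called lower and 0 higher (median -2.39), with Maob, a monoamine oxidase, at -1.23 and Gata2 the highest at 0.04. Among the 14 transmitter identity genes 11 were called lower and 1, Slc17a7, higher.

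Neuronal immediate early genes, which are induced within minutes of synaptic activity, were higher in CxH almost throughout. Of 17, 16 were called higher and 0 lower, against 15.6% and 15% of all genes tested, with a median ratio of 2.16, and the list summed to 1185 RPM in CxH, 984 in MH, 279 in CxWT and 224 in MWT. Arc, whose product acts at the postsynaptic density, had 14814 reads in CxH, 10471 in MH, 1774 in CxWT and 1028 in MWT (3.44 ± 0.05). Egr1 stood at 2.66 ± 0.05, Nr4a1 at 2.47 and Homer1 at 1.55. Bdnf, the lowest member, stood at 0.52. The correction moved Arc to 2.76, Homer1 to 2.28 and Bdnf to 1.06. After the correction 15 of the 17 were called higher and the median was 2.06. The genes of cortical excitatory neurons were high in the same 2 libraries, CxH and MH, and the part of the area in the difference was not tested.

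Glutamate receptor subunits were called in both directions, while the calls among GABA-A and glycine receptor subunits were mostly lower and those among calcium signaling genes mostly higher. Of all genes tested, 15.6% were called higher and 15% lower. Of 24 glutamate receptor subunits 7 were called higher and 4 lower (median 0.12), the latter near the share of all genes. Grik5 had the highest ratio, 1.90, and Grik1 the lowest, -1.20, while Gria1 and Gria2, subunits of AMPA receptors, were at -0.03 and 0.08. The order within this list changed with the correction, which moved Grik5 to 0.95 and Grik1 to -0.90, and the highest was then Grin2a at 1.53 and the lowest Grin2d at -1.79. Gria2 was at 0.71 after it. Grin1 had 367 RPM in CxH and 177 in MWT (1.05 ± 0.02), which fell to 0.28 after the correction. Of 18 GABA-A and glycine receptor subunits, 9 were called lower and 1, Gabrd, higher at 1.29, and the median was -0.75. Gabrb2 had 151 RPM in CxH and 310 in MWT (-1.04 ± 0.02). After the correction its ratio was -0.53, the median of the list was -0.12 and 6 members were called lower. The median GC content of this list was 42.8%, against 50.6% for all genes tested. Of 42 calcium signaling genes 19 were called higher and 4 lower (median 0.65), which became 14 and 5 (median 0.45) after the correction. Camk2a was the highest and Plcb4, a phospholipase, the lowest at -1.40, while after the correction Adcy8 was the lowest at -1.22. The calmodulin gene Calm3 (0.97) and the adenylate cyclase gene Adcy1 (1.84) were among those with the most reads, and Calm3 fell to 0.42 after the correction and was no longer called. Of 16 general neuron genes 2 were called higher and 1 lower (median 0.19), no more than among all genes, from Nefh, the heavy neurofilament chain, at -1.42 to Rbfox3, which encodes the nuclear antigen NeuN, at 2.08. After the correction they stood at -2.10 and 1.43.

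Among glia, the myelin genes leaned to the lower side, where 15% of all genes tested were called lower and 15.6% higher. Of 18 oligodendrocyte and myelin genes 7 were called lower and 0 higher, with a median of -0.68. Mbp, myelin basic protein, had 118458 reads in CxH, 116401 in MH, 184468 in CxWT and 108439 in MWT (-0.28 ± 0.01). The lowest ratio of the list was that of Aspa, aspartoacylase, at -1.81, which was -0.96 after the correction. After the correction 10 were called lower and the median was -0.71. Of 10 oligodendrocyte precursor genes 1 was called higher and 2 lower (median 0.01), shares near those of all genes. Of 17 astrocyte genes 5 were called lower and 0 higher (median -0.04). Agt, angiotensinogen, which astrocytes make in a regional pattern, had the lowest ratio, -2.74 ± 0.07, and Slc1a2, the main astrocytic glutamate transporter, the highest, 0.62, which became 0.77 after the correction. Of 8 reactive astrocyte genes 2 were called lower and 0 higher, with Gfap at 0.12 and Serpina3n at -1.07. Of 14 homeostatic microglia genes 2 were called higher, near the share of all genes, and 0 lower (median 0.31), and C1qa, a complement component, stood at 0.33. Of 17 activated microglia genes 1 was called higher and 3 lower (median -0.01), with Clec7a, the receptor dectin-1, lowest at -1.83 ± 0.14, and at -1.14 after the correction. After the correction 3 of the 17 were called higher and 2 lower, against 8.16% and 8.21% of all genes. Clec7a had 13.6 RPM in MWT, 3.82 in CxH, 3.00 in CxWT and 1.82 in MH, so the 2 libraries low in Ids were the 2 highest.

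Most ependymal and cerebellar genes were called lower, where 15% of all genes tested were called lower and 15.6% higher. Of 13 endothelial genes 2 were called higher, near the share of all genes, and 0 lower, and of 18 mural and meningeal genes 1 was called higher and 2 lower. After the correction no gene of either list was called. Of 14 choroid plexus genes tested 5 were called higher and 2 lower (median 0.42), and the median was 1.38 in MH over CxWT. Of 8 ependymal genes 7 were called lower and 0 higher (median -1.17), with Foxj1, the factor of motile cilia, the highest at -0.55, and at -1.35 after the correction. Of 7 cerebellar genes 5 were called lower and 1 higher (median -0.94). Of the 8 cerebellar genes in the table, 4 are also in another list. Cbln1 and Zic1 are also thalamic genes, En2 is also a midbrain and hindbrain factor and Neurod1 a cortical factor. Of 3 blood and leukocyte genes tested 1 was called higher and 0 lower. The member called, Hba-a1, moved from 0.75 to 0.39 with the correction and was no longer called. The only pituitary gene in the table, Pomc, which is also in the hypothalamic neuropeptide list, was at -1.59 with 23 reads in CxH and 52 in MWT.

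The median ratios of lysosomal and housekeeping genes lay near 0. Of 16 enzymes that degrade glycosaminoglycans, Ids included, 0 were called higher and 1 lower (median 0.00), from Arsk, a sulfatase with 262 reads in CxH and 394 in MWT, to Naglu, the N-acetylglucosaminidase of heparan sulfate breakdown, at 0.61. Arsk, the member called, was at -0.34 after the correction and no longer called. Naglu then stood at -0.08, and Arsg, at -0.78, was called lower. Arsb, another sulfatase, stood at 0.19. Of 22 other lysosomal genes 0 were called higher and 4 lower (median -0.13), with Ctsd, cathepsin D, at 0.17 and Asah1, acid ceramidase, lowest at -1.05. After the correction none of these 4 was called and 1 other gene was. Of 70 oxidative phosphorylation subunits 4 were called higher and 6 lower (median -0.11), and of 34 cytosolic ribosomal protein genes 6 were called higher and 4 lower (median 0.00). Over all genes tested, 15.6% were called higher and 15% lower. After the correction, 3 and 2 of the former and 2 and 1 of the latter were called. No Hox gene was in the table, 1 of 17 small structured RNAs was tested (Snord49a, -1.06), and of 4 Y-linked genes 2 were called lower, Ddx3y at -1.35 and Uty at -0.84, with none called after the correction.

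**Figure D2:**
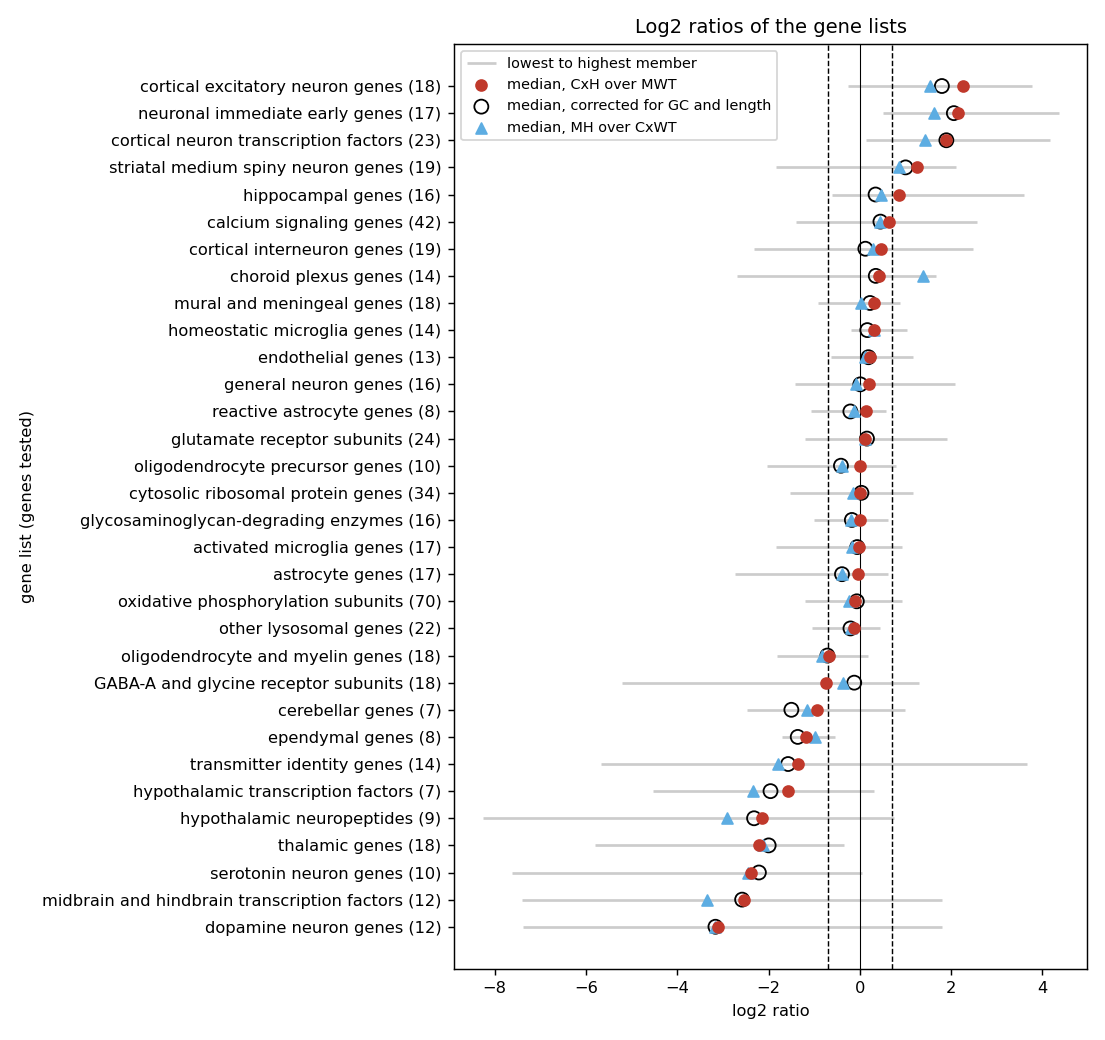
Median log2 ratio of each gene list with 5 or more genes tested (32 lists), for CxH over MWT before (red) and after (open) the correction for GC content and length, and for MH over CxWT (blue), which shares no library with it. Grey lines run from the lowest to the highest member and dashed lines mark 0.7 in size. The lists run from dopamine neuron genes at -3.10 to cortical excitatory neuron genes at 2.27, and GABA-A and glycine receptor subunits move from -0.75 to -0.12.

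Across all genes, the log2 ratio followed the GC content of the transcript. Spearman's rho between GC content and the log2 ratio was 0.66 over 12132 genes, as a description across genes that share both libraries. For transcript length rho was -0.02. When the genes were cut into 10 equal groups by GC content, in the group with the lowest, at most 42.3%, the median ratio was -0.71, 51.1% of genes were called lower and 1.89% higher. In the group with the highest, above 58.5%, the median was 0.78, 56.0% were called higher and 2.39% lower. The median rose at each step between them. Over the same groups, the medians of MH over CxWT ran from -0.22 to -0.02. Genes called higher had a median GC content of 57.0% and genes called lower 44.3%. Weighted by reads, the mean GC content of transcripts was 51.7% in CxH and 49.8% in MWT, the highest and the lowest of the 4 libraries, with 51.0% in MH and 50.6% in CxWT. The fifth of genes richest in GC took 24.1% of the reads in CxH and 14.8% in MWT, and the fifth poorest in GC took 14.4% and 22.2%.

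**Figure D3:**
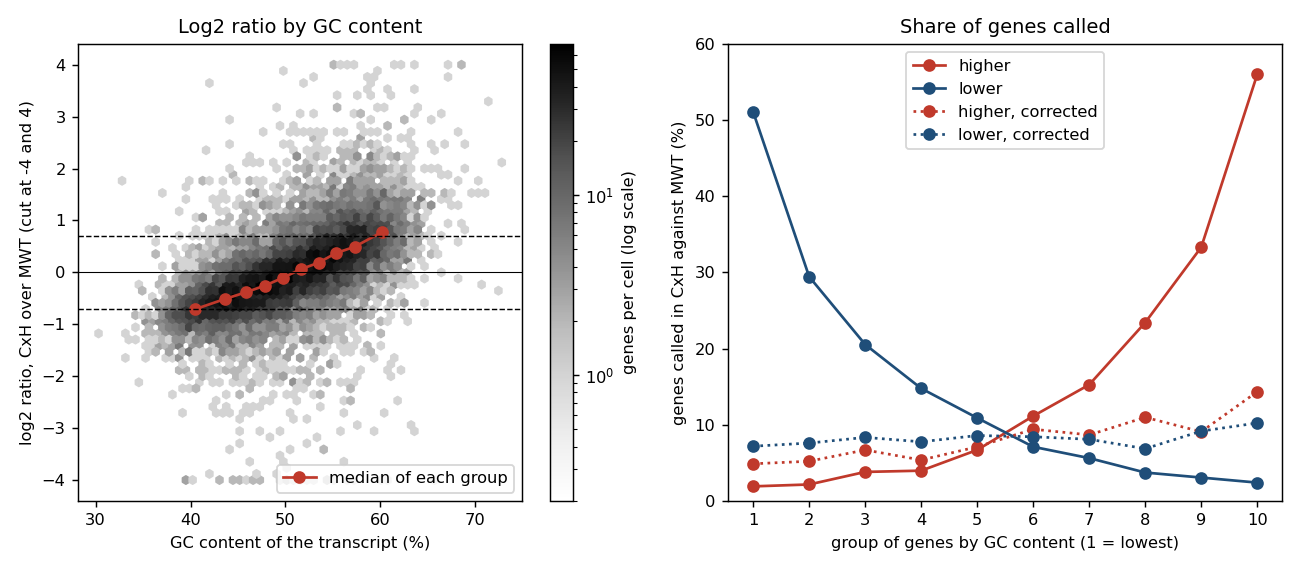
Left, log2 ratio of CxH over MWT against GC content for each tested gene (shading gives the number of genes per cell on a log scale), with the median of each of 10 equal groups of genes in red, which runs from -0.71 to 0.78. Right, percent of genes called higher or lower in each group, before (solid) and after (dotted) the correction, which brings the shares to between 4.86% and 14.3%.

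A smooth trend on GC content and then on length, fitted over genes with 100 or more reads in both libraries, was subtracted from the ratios. After this correction rho with GC content was 0.08, and 990 genes (8.16%) were called higher and 996 (8.21%) lower of 12132 with a GC content. Of the 1912 genes called higher before that have a GC content, 853 (44.6%) were still called higher and 1059 no longer passed. Of the 1802 such genes called lower, 736 (40.8%) were still called lower and 1066 no longer passed. The genes that no longer passed had a median GC content of 58.3% on the higher side and 42.3% on the lower side, while those that remained had 54.2% and 48.6%. No gene changed from one direction to the other. The correction also brought in 137 genes higher and 260 genes lower that were not called before. The lowest corrected ratios with 100 or more reads in both libraries were those of AW551984 (-3.94), Slc17a6 (-3.88), Baiap3 (-3.83), Igsf1 (-3.70), Ret (-3.59), Dlk1 (-3.49), Tcf7l2 (-3.46) and Agt (-3.10). The highest were Tbr1 (3.46), Nrgn (3.27), Slc17a7 (3.01), Vxn (2.95), Kcnv1 (2.88), Neurod2 (2.87), Arc (2.76) and Kcnh3 (2.75). Kcnv1, a potassium channel subunit with 41.6% GC, rose from 2.38 to 2.88, and Kcnh3, another with 60.5%, dropped from 3.56 to 2.75. Since the trend is fitted to the ratios themselves, any difference of tissue that runs along GC content is subtracted with it, and how much of the trend came from the tissue was not tested.

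MH over CxWT shares no library with CxH over MWT and sets a library with high cortical markers over one with high thalamic markers. By the labels the pairs are not independent in their animals, since the methods divide each brain into both areas. CxH and MH would then come from the same mice and CxWT and MWT from the same others. The Ids and area levels given above go against some of these labels, so which libraries share animals cannot be told here. In MH over CxWT, 783 genes (6.32%) were called higher and 1089 (8.79%) lower. Of the 1938 genes called higher in CxH, 1628 (84.0%) were above 0 in MH over CxWT, where 37.8% of all genes tested in both pairs were above 0. Of the 1866 called lower, 1797 (96.3%) were below 0, where 62.2% of all genes were. The genes whose calls stood after the correction and those whose calls did not stand differed in this second pair. Of the former, 70.7% of those higher and 79.8% of those lower were called in the same direction there, and of the latter 4.72% and 12.01%. By sign alone, 73.7% of the higher calls that did not stand were above 0 there. Of the lower calls that did not stand, 94.0% were below 0. How far the size of the ratios before the correction sets this difference was not tested. The called genes of the pair MH and CxWT were in turn called in the same direction in CxH against MWT for 84.8% of those higher and 68.3% of those lower. Over 11010 genes with 100 or more reads in every library, Pearson's r between the 2 sets of ratios was 0.75 and Spearman's rho 0.65, as a description across genes. After both were corrected Pearson's r was 0.87 over 10796 genes.

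**Figure D4:**
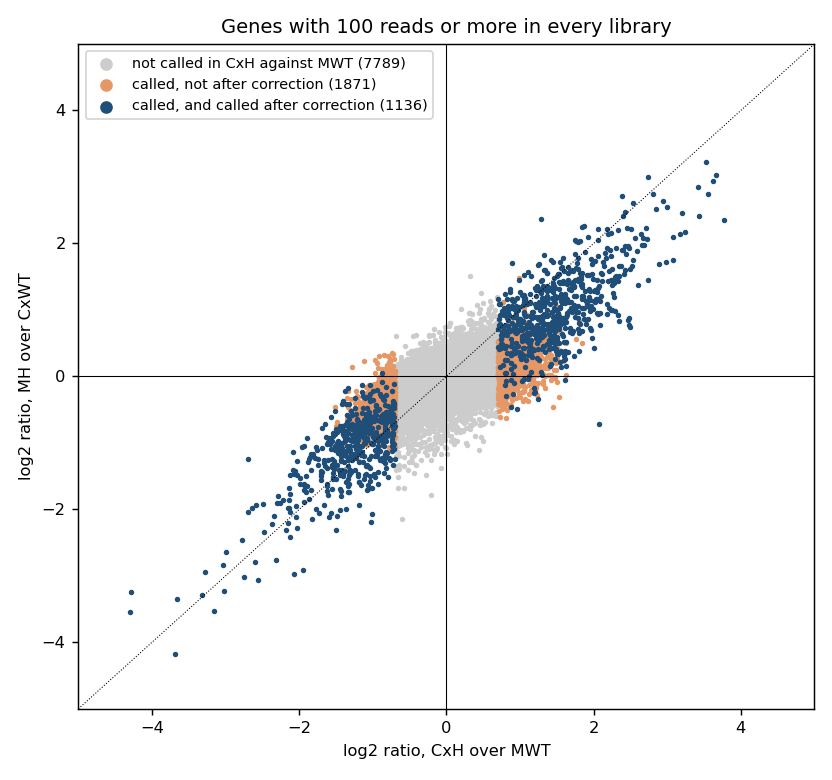
Log2 ratio of MH over CxWT against that of CxH over MWT for 10796 genes with 100 or more reads in every library and a GC content, 1 point per gene. The 1871 genes called only before the correction (orange) lie closer to 0 on the vertical axis, while the 1136 genes called before and after it (blue) extend along the diagonal.

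Only 3 genes were called in opposite directions in the 2 pairs, all of them higher in CxH than in MWT and lower in MH than in CxWT, and they were chosen for naming after their values were seen. Pcsk1n, which encodes the prohormone convertase inhibitor proSAAS, had 11318 reads in CxH, 2013 in MWT, 6361 in MH and 9399 in CxWT, with ratios of 2.08 ± 0.03 and -0.72 ± 0.02. It was 1.61 after the correction. Its levels were 294 RPM in CxH, 280 RPM in CxWT, 170 RPM in MH and 69.5 RPM in MWT, so that CxH and CxWT stood together. Scarf2, with 111 reads in CxH and 33 in MWT, and Def6, with 90 and 38, stood at 1.34 ± 0.29 and 0.83 ± 0.28. Both are rich in GC (66.4% and 59.9%), and after the correction both were within the threshold, at 0.11 and 0.16.

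The X chromosome had a larger share of genes lower in CxH than any autosome. Of 435 X-linked genes tested, 171 (39.3%) were called lower and 24 (5.52%) higher, whereas the share called lower on single autosomes ran from 8.45% to 23.4%. The median ratio of the X-linked genes was -0.53, and their median GC content was 46.4%, below the range of 47.4% to 54.2% among autosomes. After the correction 83 of 425 (19.5%) were called lower, against 5.50% to 10.9% on the autosomes, and the median was -0.14. In MH over CxWT 20.2% of the X-linked genes were called lower, against 5.67% to 12.8% on the autosomes. A ratio of -2 or less was found for 22 X-linked genes (5.06%), and for at most 1.59% on any autosome. Pgr15l, Dgkk, Arhgap36 and Igsf1, described above, are among the X-linked genes that were lower.

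**Figure D5:**
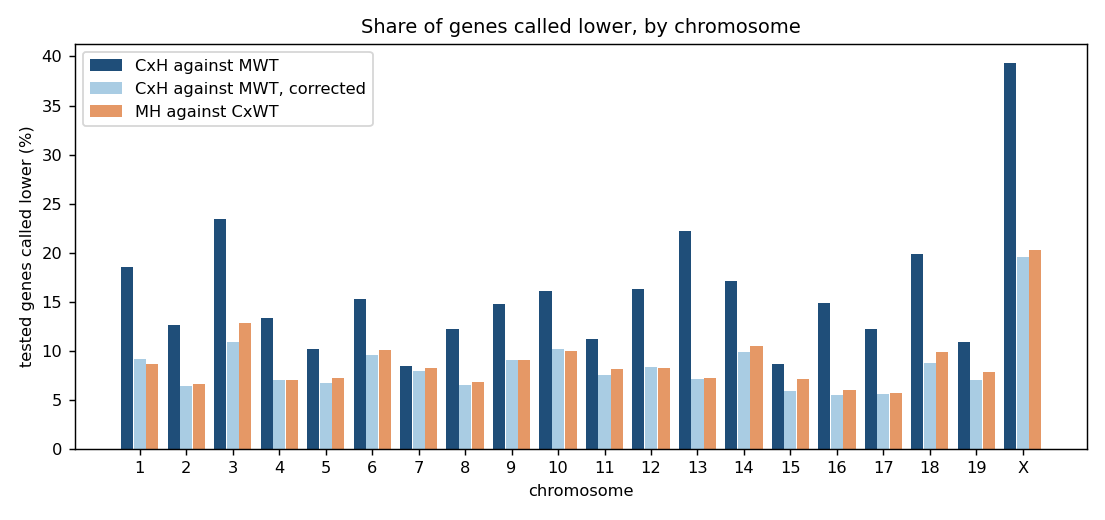
Percent of tested genes called lower on each autosome and the X chromosome in CxH against MWT, before (dark) and after (light) the correction, and in MH against CxWT (orange). The Y chromosome, with 4 genes tested, is not drawn, and of those drawn the X chromosome has the highest bar in each comparison, at 39.3%, 19.5% and 20.2%.

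Among the genes with the most reads in either library, Kif5a, a neuronal kinesin, took 148015 reads in CxH and 52932 in MWT (1.07 ± 0.01). The noncoding RNA Meg3 stood at -0.39 ± 0.01, Sparcl1 at -0.63 ± 0.01 and the elongation factor Eef1a1 at -0.28 ± 0.01.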

How the data were processed

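Pooled RNA of 7 mice per condition was sequenced on a SOLiD 3 Plus instrument in 1 run, giving 1 library for each of CxH, CxWT, MH and MWT. The authors aligned the reads to NCBI37/mm9 with PASS, with at most 2 mismatches, and kept reads with a single gene and genes of which over 50% of the length was covered. The deposited values are counts per gene, not normalized. The gene annotation is not given in the sources used here. The counts were scaled by each library's aligned reads, which the study gives as 38502647, 33617996, 37363194 and 28945731 for CxH, CxWT, MH and MWT. In ratios, counts of 0 were replaced by 1.

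Symbols came from the RefSeq gene table by Entrez ID (12690 of 12700), and positions, GC content and length of the longest coding transcript from GENCODE vM1 (12335 genes). The trend was a lowess fit with a span of 0.3. The members and lists were chosen with earlier results of these data known, so their medians and counts are descriptions. Named genes are Ids, the 15 highest and 15 lowest ratios among genes with 100 or more reads in either library, the 8 highest and 8 lowest corrected ratios with 100 or more in both, in each of 37 lists the 4 members with the most reads and both extremes, and the 5 most read genes of each library. Not all of them are printed, and a few, among them 1 of the 15 highest, are not reported here. Exact Clopper-Pearson intervals were used.

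Alternatives were the reads on genes, TMM and DESeq2 size factors as scaling, other read minimums, a log2 threshold of 1, 0.5 reads added, a likelihood ratio test on Poisson counts, an edgeR exact test with an assumed variation of 0.2, and the correction for GC content with and without length. The steps were tested on simulated data. Python 3.11.15, scipy 1.17.1, statsmodels 0.14.6, R 4.3.3, edgeR 4.0.16 and DESeq2 1.42.0 were used.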

Additional observations from a re-analysis of the deposited data

How the results depend on the processing

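With 1 library per condition, no replicate could be left out and no spread between animals was measured. No paired analysis was possible because each group has 1 library. The 1938 genes called higher and 1866 called lower fell to 1001 and 1041 with the correction for GC content, 990 and 996 with GC content and length, 1072 and 825 at a log2 threshold of 1, and 723 and 493 with the edgeR exact test at an assumed variation of 0.2 and a Benjamini-Hochberg adjusted p-value under 0.05. The likelihood ratio test on Poisson counts changed no call. A gene with 50 reads and a log2 ratio of 0.7 already passes it at a p-value under 0.05, so it could not remove a call. The other scalings, read minimums and 0.5 added reads kept the counts between 1575 and 2103 for higher and between 1661 and 2445 for lower. The share of higher calls was 50.9%, and 39.2% with scaling by reads on genes. The rank correlation of GC content with the ratio was 0.68 with 100 or more reads in both libraries and 0.60 with the GC content of the coding sequence. The ratio of Ids was -0.31 with scaling by reads on genes, 0.38 corrected for GC content and 0.29 corrected for GC content and length. Of all called genes, 90.0% had the same sign in MH over CxWT, 97.7% after the correction and 95.3% at a log2 threshold of 1. The number of lists with a median of at least 0.7 in size was 17, and 15 to 19 under the alternatives. No median of at least 0.7 in size changed sign, and among the named genes that were called only Uty did, to 0.064 with the correction for GC content.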

Other observations

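Some members of the gene lists passed the threshold only after the correction for GC content and length, and those named here were chosen after their values were seen. Their ratios in MH over CxWT are given without the correction. Slc32a1, the vesicular transporter for GABA and glycine, had 3963 reads in CxH and 2785 in MWT, a log2 ratio of 0.10 that became -0.77, and stood at -0.95 in MH over CxWT, which shares no library with it. Grin2d, an NMDA receptor subunit, moved from -0.58 to -1.79 and stood at -1.69 in MH over CxWT. Bdnf moved from 0.52 to 1.06, with 0.89 in MH over CxWT, and Gria2 from 0.08 to 0.71, with 0.63. Calm2, a calmodulin gene, moved from 0.07 to 0.73, with 0.56 in the other pair. Cox7c, a subunit of cytochrome c oxidase, moved from 0.29 to 1.23 but stood at 0.02 in MH over CxWT. Its corrected value and the uncorrected value in the other pair thus lay apart.

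In the lists of microglia, reactive astrocyte and ribosomal protein genes, many members were higher in both libraries low in Ids, CxH and MWT, than in either of the others, and the count was made after the values were seen. Of all genes tested, 1110 (8.95%) stood in this way. They included 13 of 17 activated microglia genes, 9 of 14 homeostatic microglia genes, 4 of 8 reactive astrocyte genes and 22 of 34 cytosolic ribosomal protein genes, and 6 of 16 glycosaminoglycan-degrading enzymes, 8 of 22 other lysosomal genes, 19 of 70 oxidative phosphorylation subunits, 4 of 13 endothelial genes and 5 of 18 mural and meningeal genes. They included 2 of 17 astrocyte genes, 1 of 23 cortical neuron transcription factors and 0 of 18 thalamic, 0 of 18 myelin and 0 of 17 immediate early genes.

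By summed level, CxH and MWT were the 2 highest libraries in 7 of 36 lists, CxWT and MWT in 15, CxH and MH in 11, CxWT and MH in 2, CxH and CxWT in 1 and MH and MWT in 0. The 18 activated microglia genes summed to 1655 RPM in CxH, 1632 in MWT, 1005 in MH and 1152 in CxWT. Without Ctsb and Ctsd, which are also in the lysosomal list, the sums were 322, 326, 173 and 197 RPM in the same order. The 8 reactive astrocyte genes summed to 763, 731, 362 and 397 RPM, and to 159, 176, 108 and 117 RPM without Gfap, which is also in the astrocyte list. The sum of the 22 other lysosomal genes rested on the shared Ctsb and Ctsd, with 3779, 3878, 2985 and 3583 RPM with them and 2446, 2572, 2153 and 2627 RPM without, where CxWT was the highest. With 1 library per condition, none of these differences was tested.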
